A study of Mus musculus with 4 samples.

Results

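The genes of matrix metalloproteinases (Mmp), their tissue inhibitors (Timp), the secreted Adamts metalloproteinases and the lysyl oxidases were read on 4 single-color Agilent arrays of mouse embryonic fibroblasts (MEFs). They were chosen by gene name from all probes that are not controls, which gave 51 genes with 72 probes, of 31806 named genes with 39429 probes on the array. The genes comprise 23 Mmp, 4 Timp and 19 Adamts genes and 5 lysyl oxidases. The arrays came from MEFs of C57BL/6J mice in logarithmic growth, in DMEM with serum, with 1 array for each label. G2KO stands for CycG2-/- cells and G2WT for their CycG2+/+ counterpart. G1G2KO stands for CycG1-/-CycG2-/- cells, called DKO here, and G1G2WT for their CycG1+/+CycG2+/+ counterpart. Both knockouts are germline alleles and not limited to a cell type. MEFs are primary cultures of dissociated embryos and can hold several cell types, and how many embryos went into each RNA is not given in the sources used here. G1KO MEFs were not analysed here.

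Mmp proteins are zinc-dependent enzymes that cut collagens, proteoglycans and other proteins of the extracellular matrix. They are made as inactive precursors, and Timp proteins block the active enzymes. Adamts enzymes trim procollagens and cut large proteoglycans, whereas lysyl oxidases act in the opposite sense and crosslink collagen and elastin fibres. Fibroblasts make many of these proteins, others are known from leukocytes, epithelia or the liver, and several Mmp genes respond to AP-1, the transcription factor of Fos and Jun proteins.

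Levels are signal intensities divided by the 75th percentile of the same array, so a level of 1 is a signal equal to that percentile. Every ratio compares arrays for the same probe and never different probes. Only the summed levels of marker lists add several probes, and there the gene that made up most of a sum is named. A gene was counted as higher or lower where its level differed at least 4-fold (2 on the log2 scale). Where 1 array of a pair was dim, that is, its signal did not stand well above background, the ratio is a lower limit, written as at least. No label has a replicate, so no test was made and no ratio has a replicate check. As a measure of how far cultures labelled wild type lay apart, the SD of log2 ratios between G1G2WT and G2WT was 1.04 over all genes well above background on both arrays. The error that the scanner software gave for these genes had a median of 10.0% of the signal and reached 21.4%, which covers the spot and not the culture.

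Of the 51 genes, 35 were well above background on all 4 arrays, 9 on some of them, and 7 on none (Mmp8, Mmp20, Mmp21, Mmp25, Adamts15, Adamts19 and Adamts20). The share on all 4 arrays was 68.6%, against 61.2% of all named genes. Per array, between 38 and 41 of the genes were well above background.

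The labels and cell types were checked first. Ccng1, the gene of CycG1, had a level of 1.66 on G1G2WT and was not well above background on DKO, at least 228-fold lower, while it was 1.98 on G2KO and 9.45 on G2WT. The Ccng2 probe did not separate mutant from wild-type arrays, with levels of 0.091, 0.104, 0.0619 and 0.0807 on G2KO, G2WT, DKO and G1G2WT. Whether this probe lies in the deleted part of the gene is not given in the sources used here, so it checks nothing about the label G2KO. Of all pairs of arrays, G2KO and G1G2WT lay nearest to each other, with a root mean square log2 difference of 0.54 over 24197 probes, where G2KO and G2WT had 0.86 and the other pairs between 1.01 and 1.14. Whether the labels G2KO and G2WT are exchanged was not settled here. The study reports Xist, an RNA of the X chromosome, as higher in G2KO MEFs and ascribes this to their female origin. Sex may thus differ between these cultures, and Xist, which bears on the labels, was not read here. The study's directions for Lox, Pdgfra and Sox2, given below, are opposite to the labels. If the labels are exchanged, every direction given for G2KO against G2WT turns, and every direction below rests on the labels. G1G2WT against G2WT would then be wild type against knockout, and its SD of 1.04 would not measure wild-type cultures. The wild-type pair would be G2KO and G1G2WT, with an SD of 0.572 over genes well above background on both. Of 11 fibroblast marker genes, 11 were well above background on G2KO, DKO and G1G2WT and 9 on G2WT, with summed levels of 451, 323, 512 and 336 on G2KO, DKO, G1G2WT and G2WT. Of the 11, 5 were at least 4-fold higher and 0 lower on G2KO than on G2WT, where 3.71% and 2.02% of all genes were. In DKO, 5 were lower than on G1G2WT and 1, Dcn, was higher, where 4.03% and 4.04% of all genes were. Pdgfra, a receptor that marks fibroblasts, was not well above background on G2WT. Its level was 0.0296 on DKO, 1.75 on G2KO and 5.22 on G1G2WT. All 11 mesothelial marker genes were at least 4-fold higher in DKO than on G1G2WT, most of them by lower limits. Their summed levels were 150 and 0.675, of which Msln alone made up 100.2 on DKO. The marker lists were written with earlier results of these data known. The 5 neural progenitor genes had a summed level of 30.5 on G2WT and between 1.16 and 2.07 on the other arrays, most of it from Nes, at 28.0 on G2WT. Sox2 was well above background on G2WT only, whereas Pax6 was so on G2KO only and Sox10 differed little (0.0932 on G2WT and 0.0667 on G2KO). Fewer cells of a type and less RNA per cell cannot be told apart in these samples.

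In the comparison labelled G2KO, most genes that passed 4-fold were higher on the array labelled G2KO. Of 42 genes compared, 12 (28.6%) were at least 4-fold higher, where 3.71% of all genes compared were, and 2 were lower, where 2.02% of all genes were. The 12 genes were Mmp1a, Mmp1b, Mmp2, Mmp3, Mmp9, Mmp10, Mmp13, Adamts2, Adamts4, Adamts16, Lox and Loxl3, and the genes that were lower were Mmp17 and Mmp23. The study lists Lox and the fibroblast gene Pdgfra as lower and Sox2 as higher in G2KO MEFs, and each had the opposite direction on the arrays as labelled. The median log2 ratio was 0.39 over these genes and -0.17 over all genes. The other 28 genes lay between -0.93 for Mmp28 and 1.84 for Adamts7 on the log2 scale, and 25 of them were within 2-fold.

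Between DKO MEFs and G1G2WT the changes were fewer and went mostly the other way. Of 43 genes compared, 2 (4.65%) were at least 4-fold higher in DKO MEFs, close to the 4.04% of all genes, and 6 (14.0%) were lower, where 4.03% of all genes were. Mmp23 and Adamts2 were higher, and Mmp1a, Mmp1b, Mmp3, Mmp9, Adamts6 and Adamts16 were lower. The median log2 ratio was -0.11 over these genes and 0.03 over all genes. The other 35 genes lay between -1.71 for Adamts1 and 1.86 for Mmp15, and 29 of them were within 2-fold.

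The arrays labelled wild type were themselves apart at these genes. On G1G2WT, 13 of 42 genes (31.0%) were at least 4-fold higher than on G2WT, where 4.63% of all genes were, and 2 were lower, where 2.76% were. Set against G1G2WT in place of G2WT, the array labelled G2KO had 0 of 38 genes at least 4-fold higher, where 0.911% of all genes were, and 1 lower, where 1.39% were. The latter was Adamts2, with a log2 ratio of -2.08. Set against G2WT, DKO had 9 of 42 genes (21.4%) higher and 1 lower, where 5.8% and 3.82% of all genes were. G2WT was at least 4-fold lower than each of the other 3 arrays for 6 of 44 genes, where 1.29% of all genes were, namely Mmp2, Mmp3, Mmp13, Adamts2, Adamts4 and Lox. It was higher than each of them for Mmp17 alone, where 0.808% of all genes were. DKO was at least 4-fold higher than each of the other arrays for Mmp23 and Adamts2, where 2.48% of all genes were, and lower for 0 of 44, where 1.2% were. For 0 of the 44 genes was G2KO or G1G2WT apart from all other arrays in this way, and few of all genes were, 0.0163% lower and 0.347% higher on G2KO and 0.0367% lower and 0.719% higher on G1G2WT. Each comparison that has G2WT as its reference shares that array, and what the culture and what the genotype contributed to it cannot be told apart with 1 array.

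**Figure D1:**
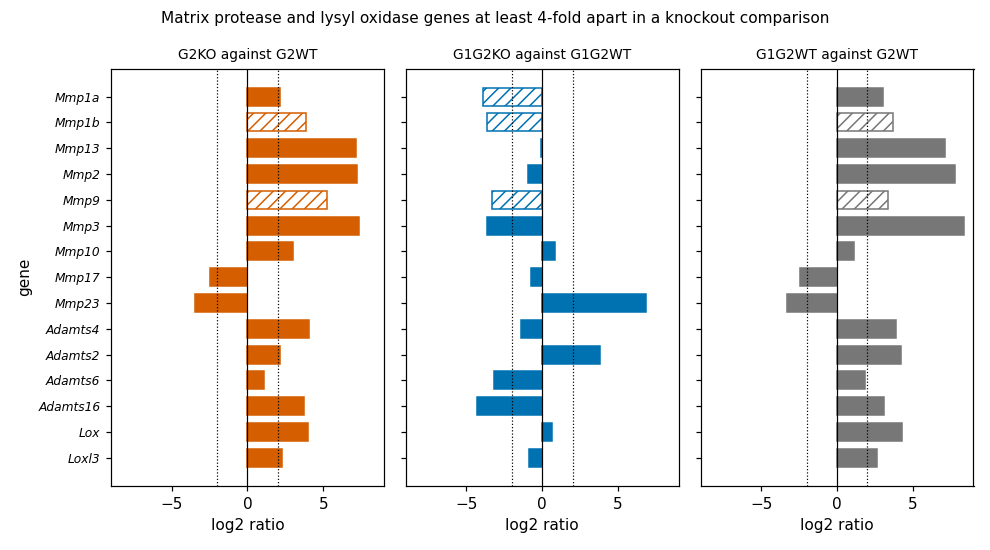
Log2 ratios (horizontal axes) of the 15 genes that differed at least 4-fold in a knockout comparison, for G2KO against G2WT, DKO (G1G2KO) against G1G2WT, and G1G2WT against G2WT. Hatched bars are lower limits, dotted lines mark 4-fold, and each bar rests on 1 array a label. Mmp2, Mmp3, Mmp13 and Lox extend far to the right in the left and right panels, which share the G2WT array, and Mmp23 turns from -3.49 in the left panel to 6.81 in the middle one.

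Another background correction, normexp with an offset of 50 added to every signal, made several ratios smaller by more than 1.5-fold without ending the call. Such an offset by itself shrinks the ratios of dim probes. For G2KO against G2WT normexp gave log2 ratios of 6.34 for Mmp3, 5.30 for Mmp13, 2.82 for Mmp9, 3.43 for Adamts4, 2.56 for Adamts16 and -2.70 for Mmp23. In DKO it gave 6.07 for Mmp23, -2.05 for Adamts16 and -2.09 for Adamts6. Calls that it ended are named beside the genes.

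A cluster of 10 Mmp genes on chromosome 9 holds 5 of these 15 genes, all of them at least 4-fold higher on G2KO than on G2WT, and the promoters of these 5 are shown because the genes lie together. The genes are Mmp13, Mmp12, Mmp1b, Mmp3, Mmp1a, Mmp10, Mmp8, Mmp27, Mmp20 and Mmp7, in the order of their probes from 7282762 to 7697700 of mm9, over 414.9 kb. The 100 bases before the start of transcription of these 5 genes are given from RefSeq (GRCm38.p6), on the strand of the gene. Capitals mark the AP-1 letters TGAGTCA, or their reverse complement TGACTCA, and the TATA letters TATAAA.
Mmp13 (chr9:7272414-7272513, plus strand): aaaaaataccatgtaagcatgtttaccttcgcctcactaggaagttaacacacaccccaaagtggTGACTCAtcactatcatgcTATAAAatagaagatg
Mmp1b (chr9:7388027-7388126, minus strand): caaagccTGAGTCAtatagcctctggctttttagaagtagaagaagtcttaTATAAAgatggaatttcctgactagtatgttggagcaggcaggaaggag
Mmp3 (chr9:7445722-7445821, plus strand): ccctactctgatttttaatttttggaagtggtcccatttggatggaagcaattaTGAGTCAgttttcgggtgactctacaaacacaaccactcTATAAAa
Mmp1a (chr9:7464041-7464140, plus strand): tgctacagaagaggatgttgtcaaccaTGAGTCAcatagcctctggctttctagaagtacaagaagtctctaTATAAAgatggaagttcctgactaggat
Mmp10 (chr9:7502242-7502341, plus strand): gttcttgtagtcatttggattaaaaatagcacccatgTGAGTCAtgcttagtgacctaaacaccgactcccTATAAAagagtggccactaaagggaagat

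In all 5 promoters the AP-1 letters stood before the TATA letters, and the first AP-1 base lay at -35 in Mmp13, -93 in Mmp1b, -46 in Mmp3, -73 in Mmp1a and -63 in Mmp10 relative to the start. The search covered 250 bases before to 50 bases after the start, AP-1 on both strands and TATA on the strand of the gene, and the motifs share no bases here. Of 32851 mouse promoters, 5.20% held the AP-1 letters, 8.32% the TATA letters and 0.624% both. Promoters were found for 33 of the 51 genes, all 10 cluster genes among them. The AP-1 letters were in 7 of the 10 cluster genes, the others being Mmp12 and Mmp7 (in 1 of their annotated starts each), and in 0 of the 23 genes elsewhere. Of the genes outside the cluster that passed 4-fold in a knockout comparison, only Adamts2 and Mmp23 had a promoter to search. Mmp2, Mmp9, Mmp17, Adamts4, Adamts6, Adamts16, Lox and Loxl3 had none, so the 0 says nothing about them. A match of letters is a description and not a bound site. Of 7 AP-1 genes, only Fos passed 4-fold between G2KO and G2WT, where 5.73% of all genes did. The levels of Fos were 0.516 on G2KO, 0.0902 on G2WT, 0.0563 on DKO and 0.1 on G1G2WT. Only Jun passed 4-fold between DKO and G1G2WT, where 8.07% of all genes did. The levels of Jun were 18.1 on G2KO, 9.77 on G2WT, 2.36 on DKO and 13.8 on G1G2WT. The median log2 ratio of the 7 genes was -0.19 for G2KO and -0.4 for DKO. The part of AP-1 in the Mmp levels was not tested.

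The collagenases, which cut fibrillar collagens, lie in this cluster. Mmp13, collagenase 3, had levels of 1.70 on G2KO, 0.0117 on G2WT, 1.52 on DKO and 1.60 on G1G2WT. Only G2WT was low, 146-fold below G2KO, and the DKO array and its wild type differed by a log2 ratio of -0.08. Unlike its neighbours Mmp3, Mmp1a and Mmp1b, Mmp13 was not lower in DKO by 4-fold.

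Mmp1a and Mmp1b, the rodent counterparts of human interstitial collagenase, followed another order. Mmp1a was 0.0585 on G2KO, 0.0132 on G2WT and 0.109 on G1G2WT, and it was not well above background on DKO. That is 4.42-fold higher on G2KO than on G2WT and at least 14.9-fold lower in DKO than on G1G2WT. Mmp1b was 0.102 on G2KO and 0.0918 on G1G2WT and was not well above background on G2WT or DKO. Its ratios were at least 14.3-fold higher on G2KO and at least 12.6-fold lower in DKO. The genes are close paralogs, but their 60-base probes share no run of more than 5 identical bases. Normexp background correction brought their log2 ratios to 0.69 (Mmp1a) and 1.72 (Mmp1b) for G2KO and to -1.57 and -1.48 for DKO, all under 4-fold. Mmp8, the neutrophil collagenase, was not well above background on any array.

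The stromelysins cut proteoglycans and fibronectin and can activate other Mmp precursors. Mmp3, stromelysin 1, had levels of 6.43 on G2KO, 0.0387 on G2WT, 1.03 on DKO and 12.7 on G1G2WT. G2KO was 166-fold above G2WT, and DKO was 12.4-fold below G1G2WT, but DKO still lay far above G2WT. Between the wild-type labels Mmp3 differed 329-fold, the widest spread among the 35 genes measured on all arrays. Mmp10, stromelysin 2, was 1.90 on G2KO, 0.240 on G2WT, 0.924 on DKO and 0.526 on G1G2WT. It was 7.92-fold higher on G2KO than on G2WT and within 2-fold between DKO and its wild type. Mmp11, stromelysin 3, is outside the cluster and differed by 1.88-fold between its highest and lowest array.

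**Figure D2:**
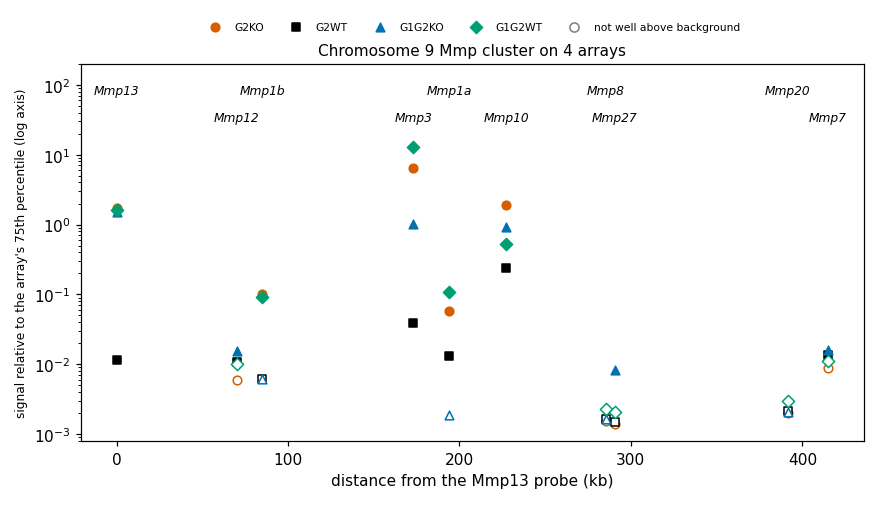
Levels (vertical axis, log scale, signal over the array's 75th percentile) of the 10 genes of the chromosome 9 cluster, against the distance of their probes from that of Mmp13 in kb. Each symbol is 1 array, and open symbols were not well above background. Mmp13, Mmp1b, Mmp3, Mmp1a and Mmp10 have the wide spreads (black squares, G2WT, lowest for Mmp13, Mmp3 and Mmp10), whereas Mmp12, Mmp8, Mmp27, Mmp20 and Mmp7 stay between 0.00138 and 0.0161.

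The gelatinases cut denatured collagen and the type IV collagen of basement membranes. Mmp2, gelatinase A (probe on chromosome 8, 95376840 to 95376899 of mm9), had levels of 18.7 on G2KO, 0.126 on G2WT, 14.3 on DKO and 27.8 on G1G2WT. Again G2WT alone was low, 148-fold below G2KO and 221-fold below G1G2WT, and DKO was 1.94-fold below G1G2WT. Mmp9, gelatinase B (chromosome 2, 164780620 to 164780679), was 0.277 on G2KO and 0.0729 on G1G2WT and not well above background on G2WT and DKO. It was read by 10 spots per array. The ratios were at least 38.7-fold higher on G2KO and at least 9.97-fold lower in DKO, and with normexp correction the latter became a log2 ratio of -1.21, under 4-fold. Macrophages and neutrophils also make Mmp9. The 7 macrophage marker genes had summed levels between 12.3 and 23.3 on the 4 arrays, most of it from Itgam, while Ptprc, which marks leukocytes, was between 0.0188 and 0.0368. Of the 7, only Cd14 passed 4-fold in a knockout comparison. It was 8.28-fold higher in DKO than on G1G2WT, where 4.04% of all genes were at least 4-fold higher. The 6 neutrophil marker genes had summed levels between 0.92 and 0.949, most of it from Elane, at 0.625 to 0.829. Of the 6 genes, Ly6g and S100a8 were at least 4-fold higher on G2KO than on G2WT, where 3.71% of all genes were. In DKO Ly6g was at least 4-fold lower and S100a9 higher than on G1G2WT, where 4.03% and 4.04% of all genes were. The part of such cells in the Mmp9 result was not tested.

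Membrane-type Mmp proteins are anchored at the cell surface. Mmp14, the main activator of the Mmp2 precursor, was among the steadiest genes, at 3.07 on G2KO, 3.23 on G2WT, 3.44 on DKO and 4.15 on G1G2WT. Its highest and lowest arrays, G1G2WT and G2KO, differed 1.35-fold. Between G1G2WT and G2WT, where Mmp2 differed 221-fold, Mmp14 differed 1.28-fold. Mmp17, which is held by a lipid anchor, was 0.253 on G2KO, 1.40 on G2WT, 0.156 on DKO and 0.264 on G1G2WT. Only G2WT was high, 5.54-fold above G2KO. Mmp15, Mmp16 and Mmp24 were well above background on all 4 arrays and passed 4-fold in neither knockout comparison, with Mmp15 closest at 3.63-fold higher in DKO.

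Mmp23, a small enzyme held in the membrane by its amino-terminal end, was the only Mmp gene at least 4-fold higher in DKO than on G1G2WT. It had levels of 0.0417 on G2KO, 0.468 on G2WT, 5.36 on DKO and 0.0478 on G1G2WT (chromosome 4, 155025377 to 155025436 of mm9). DKO was 112-fold above G1G2WT, and also above G2WT, while G2KO was 11.2-fold below G2WT. All 11 mesothelial marker genes were higher in DKO as well, and so were Acp5, an acid phosphatase, and Ctsk, a collagen-cutting cathepsin, of the osteoclast list. These lists were written with earlier results of these data known. The study itself lists Wt1, Krt18, Upk1b and Acp5 as higher in DKO MEFs. Acp5 and Ctsk had levels of 3.85 and 8.35 on DKO and of 0.0167 and 0.0967 on G1G2WT, whereas Calcr, which defines osteoclasts, was not well above background on any array. The part of other cells in the Mmp23 level was not tested. Mmp19 was lowest on G2WT and passed 4-fold only between the wild-type labels, at 4.41-fold. Mmp7, Mmp12 and Mmp28 were near background, well above it on G2WT and DKO only, and Mmp27 on DKO only.

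**Figure D3:**
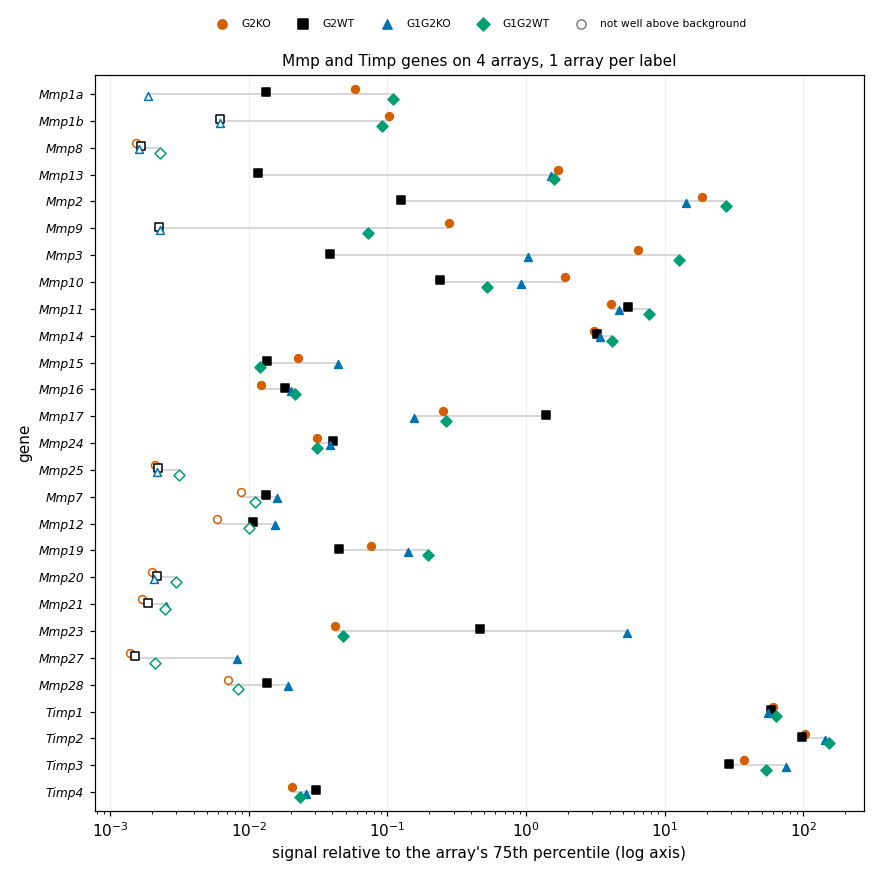
Levels (horizontal axis, log scale, signal over the array's 75th percentile) of the 23 Mmp and 4 Timp genes on the 4 arrays, 1 symbol per array, open where the probe was not well above background. Symbols are to be compared within a row. The Timp rows are tight, at most 2.60-fold wide, whereas the rows of Mmp2, Mmp3, Mmp13 and Mmp23 span over 100-fold.

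The inhibitors showed no change of this size. All 4 Timp genes were well above background on every array, and none passed 4-fold in any of the 3 comparisons. Of all genes, 5.73% passed it on G2KO against G2WT, 8.07% in DKO against G1G2WT and 7.39% between the wild-type labels. Timp1, a secreted inhibitor of most Mmp enzymes, was 60.1 on G2KO, 58.1 on G2WT, 55.8 on DKO and 63.2 on G1G2WT. Its arrays differed 1.13-fold from lowest to highest, less than for any other of the 35 genes, and only 1.45% of all genes measured on all 4 arrays had a smaller spread. Timp2, which takes part in the activation of Mmp2 by Mmp14, was 102.8 on G2KO, 97.9 on G2WT, 141.8 on DKO and 151.6 on G1G2WT. DKO and G1G2WT were above G2KO and G2WT, by 1.55-fold at most, and by a second probe DKO was 1.72-fold above G1G2WT and 2.16-fold above G2WT. Timp3, which binds to the matrix and also blocks Adamts enzymes, was 37.4 on G2KO, 28.8 on G2WT, 74.9 on DKO and 53.8 on G1G2WT. It was highest in DKO, 1.39-fold above G1G2WT. Timp4 differed at most 1.48-fold. The median span from lowest to highest array was 1.52-fold for the Timp genes, 6.17-fold for the 12 Mmp genes measured on all arrays, 4.61-fold for 14 Adamts genes, 2.86-fold for the lysyl oxidases and 1.74-fold for all genes.

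Among the Adamts genes, those of the procollagen processing enzymes were led by Adamts2, which removes the amino-terminal propeptide of fibrillar procollagens. Adamts2 had levels of 0.193 on G2KO, 0.0443 on G2WT, 11.4 on DKO and 0.815 on G1G2WT (chromosome 11, 50617472 to 50617531 of mm9). DKO was 14.0-fold above G1G2WT and far above both other arrays, and G2KO was 4.36-fold above G2WT. It was the only gene called in both knockout comparisons in the same direction, but the G2KO array was at the same time below G1G2WT. A second, dimmer probe of Adamts2 gave a log2 ratio of 3.17 for DKO and -0.38 for G2KO, so the probes disagreed on the latter, and normexp correction brought it to 1.37, under 4-fold. Adamts14, with the same activity, was within 2-fold in both knockout comparisons, and Adamts3 was well above background on DKO only.

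Of the genes of proteoglycan-cutting enzymes, Adamts4, an aggrecanase, was 0.906 on G2KO, 0.0552 on G2WT, 0.304 on DKO and 0.817 on G1G2WT. It was 16.4-fold higher on G2KO than on G2WT, with G2WT alone low, and 2.69-fold lower in DKO than on G1G2WT. Adamts5, the other main aggrecanase, was 2.50-fold higher on G2KO than on G2WT by its brighter probe and did not pass 4-fold, but 6.44-fold higher on G1G2WT than on G2WT. Adamts1 and Adamts9 passed 4-fold in neither knockout comparison. For Adamts8, a second probe was at least 4-fold lower in DKO (log2 ratio -4.61 or lower), whereas the probe used gave 0.86, and which of these reads the gene cannot be told apart here.

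Adamts16 and Adamts6 were the other Adamts genes called, and both were lower in DKO MEFs. Adamts16 was 0.315 on G2KO, 0.0233 on G2WT, 0.0104 on DKO and 0.202 on G1G2WT. It was 13.5-fold higher on G2KO than on G2WT and 19.3-fold lower in DKO than on G1G2WT, with G2WT and DKO both low. A second probe of Adamts16 was not well above background on any array, so these ratios rest on 1 probe. Adamts6 was 0.164 on G2KO, 0.0782 on G2WT, 0.0320 on DKO and 0.283 on G1G2WT. It was 8.86-fold lower in DKO and 2.10-fold higher on G2KO. Adamts7, which cuts the cartilage protein COMP, came close to the threshold on G2KO, 3.59-fold higher than on G2WT. The probes of Adamts13 and Adamts17 disagreed past 4-fold in DKO, with log2 ratios from -4.02 to 0.15 and from -1.66 to 0.89.

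Of the 5 lysyl oxidases, 2 were at least 4-fold higher on G2KO than on G2WT, where 3.71% of all genes were. None passed 4-fold in DKO, where 8.07% of all genes did, so 0 of 5 is near that share. Lox, which starts the crosslinking of collagen and elastin, had levels of 9.95 on G2KO, 0.616 on G2WT, 18.7 on DKO and 11.8 on G1G2WT. G2WT alone was low, 16.2-fold below G2KO and 19.2-fold below G1G2WT, while DKO was 1.58-fold above G1G2WT. A second Lox probe gave a log2 ratio of 4.04 for G2KO against 4.02 for the first, and 0.61 against 0.66 for DKO. Loxl3 was 1.19 on G2KO, 0.241 on G2WT, 0.824 on DKO and 1.50 on G1G2WT, with the same low array, 4.93-fold below G2KO. Loxl1, which is known for elastic fibres, was 36.1 on G2KO, 22.6 on G2WT, 16.2 on DKO and 46.3 on G1G2WT. It did not pass 4-fold, and DKO was its lowest array, 2.86-fold below G1G2WT, as both of its probes had it. Loxl2 and Loxl4 were within 2-fold in both knockout comparisons. A probe that the files name Loxl2 lies on chromosome 2 and not with the other Loxl2 probes on chromosome 14, and it was not used.

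**Figure D4:**
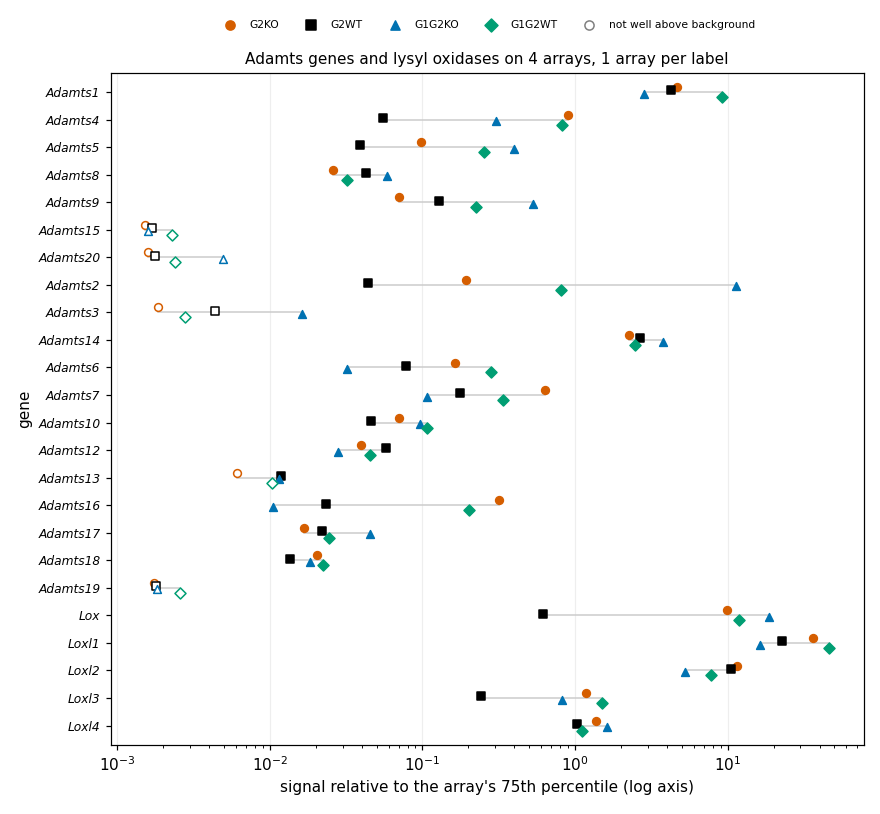
Levels (horizontal axis, log scale, signal over the array's 75th percentile) of the 19 Adamts genes and 5 lysyl oxidases on the 4 arrays, 1 symbol per array, open where the probe was not well above background. Symbols are to be compared within a row. The DKO symbol of Adamts2 stands far to the right of the others, at 11.4, and the G2WT symbols of Lox, Loxl3 and Adamts4 stand to the left.

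Genes that work with these enzymes were read from lists of their own. On G2KO against G2WT, 3.71% of all genes were at least 4-fold higher and 2.02% lower. In DKO against G1G2WT, 4.04% of all genes were higher and 4.03% lower. Of 14 genes of collagen and elastin assembly, such as the lysyl hydroxylases and Pcolce, 0 passed 4-fold in either knockout comparison. In so short a list 0 is near these shares, and the other counts are small too. Of 15 substrate genes, 2 were higher on G2KO than on G2WT and 3 were lower in DKO than on G1G2WT. Fbn2, fibrillin 2, was in both counts, with levels of 1.17 on G2KO, 0.0250 on G2WT, 0.0265 on DKO and 4.23 on G1G2WT. Col3a1 was 13.7-fold higher on G2KO, and Col2a1 was 140-fold lower in DKO. Among 15 genes that activate proteases or control them at the cell surface, Plat (tissue plasminogen activator) and Tfpi2 were higher on G2KO than on G2WT, the latter at least 11.2-fold. Serpine2, an inhibitor of serine proteases, was 14.1-fold lower on G2KO and 4.21-fold higher in DKO, and Tll1 was 5.39-fold lower in DKO. Of 13 related Adam and Adamts-like genes, Adam19 was 159-fold higher on G2KO than on G2WT, with levels of 7.62 on G2KO, 0.0478 on G2WT, 4.15 on DKO and 7.11 on G1G2WT. In DKO MEFs 1 of them was higher, Adam8 by 4.05-fold, and 4 were lower, among them Adamtsl3 by at least 15.9-fold, Adamtsl1 by 7.77-fold and Adam12 by 5.68-fold.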

How the data were processed

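The intensity values are those the authors deposited, made with Agilent's extraction software (10.7.3.1 per the file headers, 10.5.1.1 per the submitters' processing notes), which corrected background and spatial trends within each array. The study's methods describe dye-swapped arrays for G2KO MEFs, whereas the deposited arrays are single-color, on 1 slide. Control and outlier spots were left out, the log2 of each intensity was taken over the array's 75th percentile (signals between 1586.21 and 2233.61), and spots of a probe were averaged. No spot was saturated. A gene was represented by its probe with the highest mean log2 level, and compared where well above background on at least 1 array of the pair. A dim probe was raised to the array's faintest signal well above background if it lay under it, and no ratio was given where this limit fell under 1. Values on all arrays were given for the genes past 4-fold in a knockout comparison and for Timp1, Timp2, Timp3, Mmp2, Mmp14, Lox and Loxl1. From the other lists, genes past 4-fold were counted and those with the largest ratios named. Genes, lists and thresholds were chosen with earlier results of these data known. The calculation was tested on simulated data. Alternatives were normexp background correction (offset 50, limma 3.58.1, R 4.3.3), quantile normalization, median scaling, no scaling, other filters, thresholds of 2-fold and 10-fold, the median over probes, and other wild-type references. Ratios were computed in Python (3.11.15) with pandas (2.3.3) and numpy (2.4.6). Probe positions are those of the files (mm9), and 18 of the 51 genes had no promoter in the reference table.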

Additional observations from a re-analysis of the deposited data

Results flagged for a closer look

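Genes called in both knockout comparisons in opposite directions were Adamts16, Mmp1a, Mmp1b, Mmp3 and Mmp9, higher on G2KO than on G2WT and lower in DKO than on G1G2WT, and Mmp23, which went the other way. The log2 ratio of DKO against G1G2WT minus that of G2KO against G2WT was -8.03 for Adamts16, -6.04 for Mmp1a, -7.49 for Mmp1b, -11.01 for Mmp3, -8.59 for Mmp9 and 10.3 for Mmp23, with lower limits in those of Mmp1a, Mmp1b and Mmp9. How many of all genes were called in opposite directions was not counted, so this is not shown to be particular to these genes. G2KO and G1G2WT, which stand on opposite sides of the comparisons, were the nearest pair of arrays (root mean square log2 difference of 0.54). The difference between the comparisons was not tested, since each label has 1 array. A second probe of Adamts5, which did not represent the gene, was at least 4-fold higher on G2KO than on G2WT, with a log2 ratio of 2.65 or more, where the probe used gave 1.32.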

How the results depend on the processing

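The wild-type reference moved the counts most. Against the other wild-type array, the array labelled G2KO had 0 genes at least 4-fold higher and 1 lower (12 and 2 against its own), and DKO had 9 higher and 1 lower (2 and 6 against its own), where 0.911%, 1.39%, 5.8% and 3.82% of all genes were. Against the mean of both wild-type arrays the counts were 7 and 0 for G2KO and 6 and 3 for DKO, where 2.31% and 7.28% of all genes were apart in either direction. Taken against G1G2WT, the log2 ratios on G2KO reversed for Adamts2 (-2.08), Lox (-0.25), Loxl3 (-0.34), Mmp1a (-0.90), Mmp2 (-0.57) and Mmp3 (-0.99), and that of Mmp3 in DKO reversed to 4.73 against G2WT and to 0.55 against the mean. With each comparison's own reference array, 0 of the 22 called ratios reversed. Normexp correction left 3 lower genes in DKO, where 4.31% of all genes were apart in either direction. So did the demand that both arrays be well above background, where 5.71% were. Normexp brought the ratios of Mmp1a to 0.69 and -1.57 and those of Mmp1b to 1.72 and -1.48. It moved 10 of the 22 called ratios by more than the SD between the wild-type labels, among them Mmp13 (5.30), Mmp9 (2.82 and -1.21) and Adamts16 (2.56 and -2.05). Without scaling, which moved the median of all genes for G2KO from -0.17 to 0.33, 1 gene was lower on G2KO. At that setting 6.84% of all genes were apart in either direction. A 2-fold threshold gave 4 higher and 10 lower genes in DKO, where 20.3% of all genes were apart. A 10-fold threshold gave 1 lower gene on G2KO, where 2.16% of all genes were apart. It gave 8 apart between the wild-type labels, where 2.68% of all genes were. At 4-fold 15 were apart there, where 7.39% of all genes were. Other counts were within 1.5 times. The cause of these shifts was not tested, and the share of the normexp shifts that came from its offset was not separated. Adamts2 on G2KO was 0.87 as the median over its probes. No paired analysis was possible because each label has 1 array.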

Other observations

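Among the 35 genes well above background on all arrays, the lowest level was on G2WT for 15 (42.9%, against 23.4% of all genes) and the highest on G1G2WT for 14 (40.0%, against 22.2% of all genes). Adamts9, an aggrecan- and versican-cutting enzyme that passed 4-fold in neither knockout comparison, still spanned 7.59-fold between G2KO at 0.0697 and DKO at 0.529.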
